A study of Mus musculus with 15 samples.

Results

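The interferon-induced chemokine genes Cxcl9, Cxcl10 and Cxcl11 lie close together on mouse chromosome 5. Their accessible chromatin was followed through a window of 80 kb of chromosome 5 that spans them, in build mm9. Accessible stretches are called hotspots here, as in the authors' lists, and were read out by DNase-seq, which sequences the ends left where DNase I cuts open chromatin. Members were all hotspots that overlapped the window in any of the 15 deposited lists, merged where they shared at least 1 bp. This gave 12 elements of 324185 formed in the same way over the whole genome. They are numbered 1 to 12 along the chromosome and lie between 92737536 and 92811451. All 12 are described below, and 6 of them reached the part of the lists by which libraries were compared here. That part ended at unlike Z-scores in different libraries, as given below.

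The cells were macrophages grown from the bone marrow of C57BL/6J mice and given 10 ng/ml lipopolysaccharide (LPS) for 0, 3 or 8 h. At each time there were 2 libraries of genotype Ikzf KO (KO), 1 of littermate controls and 2 of wild type (WT). Littermate and WT libraries together are called controls, 3 per time. The titles give 100 U of DNase for WT replicate 2 and 80 U for all others. The labels do not name the KO allele, and do not say whether replicates were separate mice or cultures. The p-values therefore rest on library-to-library spread alone, which could be technical. The label of the cells was not checked against marker genes, since no annotation of build mm9 was used. For the same reason no element is tied to a single gene. In the RefSeq table of build GRCm38.p6 the order of the genes along the chromosome is Cxcl9, Art3, Cxcl10 and Cxcl11.

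CXCL9, CXCL10 and CXCL11 are the ligands of the receptor CXCR3, through which activated T cells and natural killer cells are drawn to inflamed tissue. Macrophages make CXCL10 soon after LPS: Toll-like receptor 4 activates NF-kB and, through the adaptor TRIF, interferon regulatory factors. The type I interferon released then acts back on the cell through STAT factors and the interferon-stimulated response element. Cxcl9 is best known as a gene induced by interferon gamma. Cxcl11 is listed as a transcribed pseudogene in the RefSeq table, which is made from C57BL/6J. Ikaros, the zinc finger protein named in the series title, is encoded by Ikzf1 and binds DNA in lymphoid and myeloid cells.

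Promoter sequences are shown because the window spans these genes, and 2 of the 3 genes were matched to a RefSeq promoter entry. No hotspot is placed on them. Each runs 5′ to 3′ on the minus strand of GRCm38.p6, from 250 bases before to 50 bases after the annotated start. Cxcl10 is chr5:92348840-92349139 and Cxcl9 is chr5:92328030-92328329 in that build, which is not the build of the hotspots. Capitals mark motif matches on either strand.
Cxcl10: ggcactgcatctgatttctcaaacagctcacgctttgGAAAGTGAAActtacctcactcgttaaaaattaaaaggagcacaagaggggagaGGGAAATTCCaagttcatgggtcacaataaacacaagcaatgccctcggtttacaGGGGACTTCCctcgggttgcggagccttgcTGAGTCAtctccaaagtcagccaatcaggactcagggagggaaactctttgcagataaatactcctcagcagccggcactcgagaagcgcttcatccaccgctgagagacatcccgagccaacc
Cxcl9: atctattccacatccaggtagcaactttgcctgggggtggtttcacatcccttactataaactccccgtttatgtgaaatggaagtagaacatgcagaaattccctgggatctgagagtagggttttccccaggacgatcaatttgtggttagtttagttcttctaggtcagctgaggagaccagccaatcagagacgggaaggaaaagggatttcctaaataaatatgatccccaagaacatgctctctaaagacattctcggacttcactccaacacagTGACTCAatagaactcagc
The Cxcl10 promoter held 1 match to the interferon-stimulated response element pattern (GAAA, any 2 bases, GAAA), at position -213 from the start, a pattern found in 3.44% of the 32851 promoters in the table. It held 1 match to the NF-kB pattern (GGGA, any 3 bases, TCC; 4.59% of promoters). A wider NF-kB pattern (GGG, any 3 bases, TTCC; 5.56%) matched 2 times, of which 1 is the same site. It also held 1 match to the AP-1 pattern TGANTCA (7.81%), at position -74. Of the patterns searched, the Cxcl9 promoter matched only AP-1, past the start. Sites that depart from these exact patterns, in spacing or in letters, were not searched for. The patterns TTC, any 3 bases, GAA for STAT factors (8.3% of promoters), TGGGAA for Ikaros (25.6%) and GAGGAA for ETS factors (28.3%) had no match in either window, which says only that these letters are not there.

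The lists differ in length and strength. They held 15659 to 132279 hotspots, and all 6 KO lists (111553 to 132279) were longer than 8 of the 9 control lists. The Z-score is the authors' own score of each hotspot. At rank 15659 it was 25.1 to 28.7 in KO at 0 h and 3 h, at least 35.6 in KO at 8 h, 25.8 to 27.3 in controls at 8 h and 8.48 to 11.4 in controls at 0 h and 3 h. These differences run with genotype and time, and their part in the results below was not tested. Genotypes and times were therefore compared by rank within lists shortened to the 15659 best hotspots. The rank score is 100 for the best hotspot of such a list, falls evenly to just above 0 for the last, and is 0 for an element outside the list. A rank is relative: an element ranks lower when other hotspots of the same list rank higher.

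Among the 15659 best hotspots of each list, controls held at most 1 in the window before LPS and at least 4 after it, while KO lists held 1 or 2 before LPS and 2 to 4 after it. As deposited, KO replicate 1 held 9, 14 and 12 hotspots in the window at 0, 3 and 8 h, and KO replicate 2 held 9, 15 and 12. Littermate lists held 9, 9 and 13 at 0, 3 and 8 h. WT replicate 1 held 0, 9 and 12, and WT replicate 2 held 3, 12 and 12. WT replicate 1 thus had no hotspot in the window before LPS, although its list held 17237 hotspots elsewhere. The littermate at 0 h thus held as many as either KO list at that time. Among the 15659 best, control lists held 5 to 10 at 3 h and 4 to 5 at 8 h. Some of these hotspots were parts of 1 element. Counted as elements, each control list held 5 at 3 h and 4 at 8 h. KO replicates 1 and 2 held 3 and 4 elements at 3 h, and 3 and 2 at 8 h. In the flanks of 80 kb on either side, each of the 15 shortened lists held 1 to 3 hotspots on the left and 1 on the right.

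**Figure D1:**
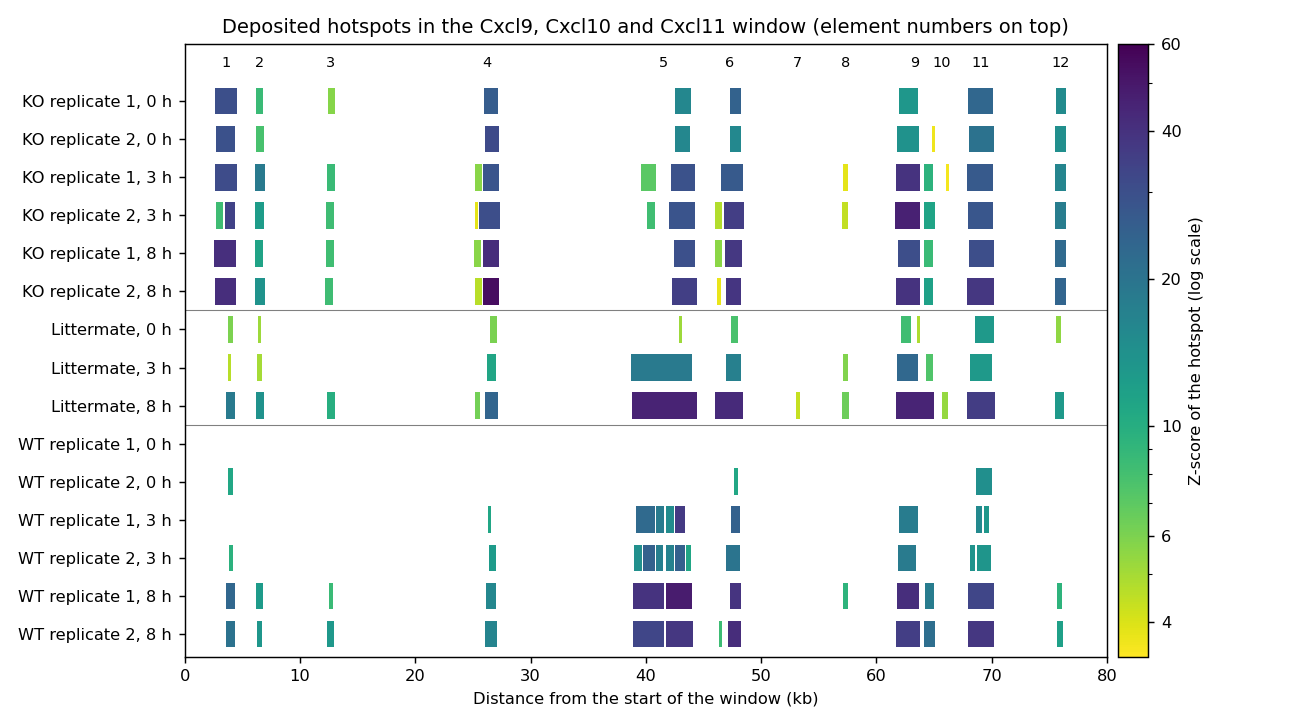
Each row is a library and each bar a deposited hotspot, placed by its distance in kb from the start of the window and coloured by its Z-score on a log scale. KO rows hold elements 1 and 4 as dark bars at every time, and the broad run of hotspots at element 5 fills in control rows at 3 h and 8 h. KO rows hold the right part of element 5 at every time, and its left part only as pale bars at 3 h.

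Of the 12 elements, 6 were among the 15659 best hotspots of at least 1 list and are described one by one. These are element 1 (chr5:92737536-92739550), element 4 (chr5:92760124-92762312), element 5 (chr5:92773727-92779439), element 6 (chr5:92780965-92783551), element 9 (chr5:92796581-92800066) and element 11 (chr5:92802861-92805317). They are 2015 to 5713 bp long, and element 5 is the longest. Which gene each may serve is not known from these data.

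Element 5 was the broadest element. Its rank set LPS-treated controls apart from the rest, but its rank relative to each list's own length did not. KO replicate 1 had best Z-scores of 15.9, 29.1 and 29.7 at 0, 3 and 8 h, and KO replicate 2 of 15.9, 28.4 and 35.3. In littermate lists they were 5.19, 18.5 and 45.4 at 0, 3 and 8 h. WT replicate 1 had no hotspot there at 0 h, then 36.8 and 48.2, and WT replicate 2 none, then 24.9 and 38.0. Within the lists, element 5 ranked 28346, 15158 and 19871 in KO replicate 1 and 27377, 15871 and 18515 in KO replicate 2, where rank 1 is the strongest. In the controls after LPS it ranked 2281 to 4081 at 3 h and 7412 to 9083 at 8 h. By rank, every LPS-treated control library thus placed it ahead of every KO library, and the share of all elements that do so was not counted. These ranks come from lists of unlike length, which bounds how low an element can rank. WT replicate 1 at 3 h held 15659 hotspots, and KO replicate 2 at 8 h held 132279. By Z-score both KO lists at 3 h lay above the littermate and WT replicate 2. With the rank score taken over each list's own length, KO at 3 h (86.4 to 87.4) lay within the control range (79.7 to 92.4). So did KO at 8 h (84.1 to 86.0), against 82.5 to 93.5 in controls. In the shortened lists the rank score averaged 1.60 ± 2.27 in KO at 3 h (SD, n = 2) and 78.0 ± 6.44 in controls at 3 h (SD, n = 3). At 8 h it was 0 in both KO lists and 48.4 ± 5.65 in controls (SD, n = 3), and at 0 h it was 0 in all 5 lists. The 3 h lists of KO lie at the edge of the shortened lists, with 1 just inside at rank 15158 and 1 just outside at rank 15871.

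Within element 5 the presence of hotspots differed most in its left part. The hotspots that KO lists held at 0 h and 8 h all began at or after 92777236, in the right part of the element. In both KO lists at 3 h a second, weak hotspot lay further left, chr5:92774616-92775904 with a Z-score of 7.12 and chr5:92775068-92775810 with 8.23. In the LPS-treated controls the same stretch was strong: in WT replicate 1 the hotspot chr5:92774113-92775823 had a Z-score of 22.4 at 3 h, and chr5:92773897-92776588 had 39.6 at 8 h. In littermate lists at 3 h and 8 h a single hotspot of 5247 and 5678 bp covered the left and the right part. With the element divided into stretches of 500 bp, hotspots of all 6 LPS-treated control lists reached the 6 stretches from 92774000 to 92776999, and no list at 0 h and no KO list at 8 h did. Both the division and this pattern were chosen after the hotspots of element 5 were seen. That 22 of 720092 stretches genome-wide (0.00306%) had the pattern in the lists as deposited, these 6 included, is therefore a description that supports nothing about the element. The depth of the libraries is unknown, and its part in this pattern was not tested. A difference in depth or calling, a smaller share of cells with the site open and less opening per cell cannot be told apart here.

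**Figure D2:**
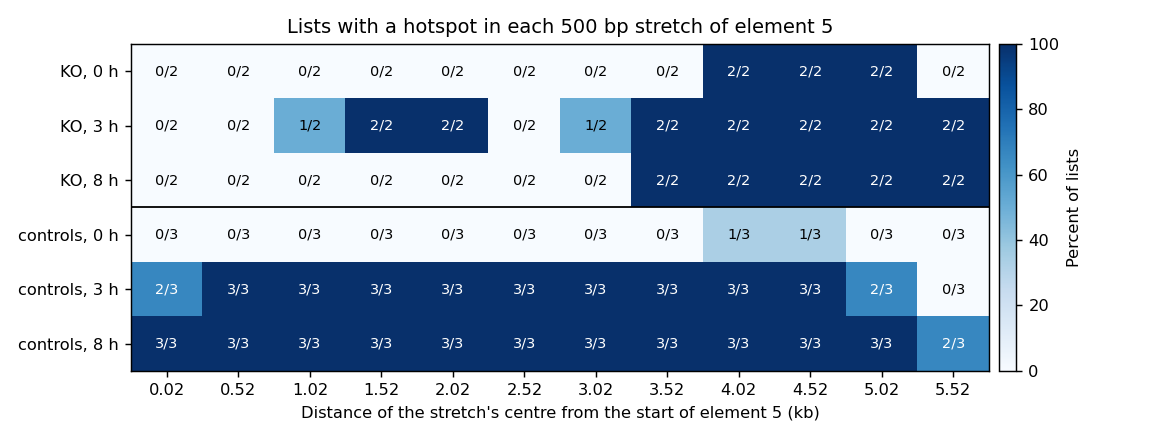
Columns are stretches of 500 bp along element 5, by the distance of their centre from its start in kb, and rows are genotype and hours of LPS, with the number of deposited lists that hold a hotspot there. The left stretches are filled in controls at 3 h and 8 h, partly filled in KO at 3 h and empty in KO at 0 h and 8 h.

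Elements 6 and 9, to the right of element 5, also entered the best hotspots of controls with LPS. Element 6 had best Z-scores of 15.7, 35.8 and 38.6 in KO replicate 2 at 0, 3 and 8 h, and 24.6, 27 and 37.6 in KO replicate 1. By Z-score both KO lists at 3 h lay above every control at that time, whereas by rank they lay below. In controls it was at 7.79 in the littermate and 10.9 in WT replicate 2 at 0 h and not listed in WT replicate 1. After 3 and 8 h of LPS it stood at 17.4 and 42.8 in the littermate, 25.0 and 39.1 in WT replicate 1, and 19.9 and 41.7 in WT replicate 2. Its rank score was 0, 0 and 7.26 in KO replicate 1 and 0, 27.5 and 0 in KO replicate 2, against 59.3 to 70.9 in controls at 3 h and 35.8 to 50.1 at 8 h. The KO and control scores of element 6 did not overlap at 3 h or at 8 h, and the share of all elements that do so was not counted. With the rank score taken over each list's own length, KO lay within the control range at both times. It was 86.0 to 90.3 in KO and 68.3 to 91.3 in controls at 3 h, and 87.5 to 88.4 and 79.1 to 92.8 at 8 h. At each of these times 1 shortened KO list held element 6, so its presence did not separate the genotypes.

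Element 9 was the only 1 of the 6 in the shortened lists of all 5 series at 3 h and in none at 0 h. The same was true of 0.902% of the 26044 elements in any shortened list at these times. A series is the 3 libraries of a genotype with the same replicate number. KO replicate 1 had best Z-scores of 13.2, 39.2 and 30.5, and KO replicate 2 of 14.1, 45.9 and 39.6. Littermate lists had 8.20, 22.9 and 45.3 at 0, 3 and 8 h, WT replicate 1 had none, 18.2 and 41.2, and WT replicate 2 had none, 18.4 and 35.5. The rank score was 38.7 and 51.6 in KO at 3 h, against 51.8, 53.7 and 84.8 in controls. The highest KO list lay just below the lowest control list, so the groups nearly met. At 8 h it was 0 in both KO lists and 35.8 to 52.5 in controls. In KO replicate 2 at 8 h the element sat just outside the shortened list, at rank 15929.

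Element 11 was the only element that control lists held among their 15659 best hotspots before LPS. This was so in 2 of 3 controls, with Z-scores of 12.8 in the littermate and 14.5 in WT replicate 2, and was the strongest element of the window in both. Its rank score in controls was 0 to 39.7 at 0 h, 28.1 to 48.7 at 3 h and 21.6 to 42.4 at 8 h, and it was 0 in all 6 KO lists. KO lists did hold it, with Z-scores of 20.4 to 38.3, at ranks 16390 to 20468. It therefore lay just outside the shortened list in KO rather than far down.

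Elements 1 and 4, further left in the window, had the highest Z-scores of the window in KO at 0 h and 8 h. At 3 h element 9 was higher than both in each KO list. Element 1 had Z-scores of 30.0, 31.2 and 40.8 in KO replicate 1 and of 29.4, 33.9 and 41.1 in KO replicate 2. In littermate lists these were 5.97, 4.62 and 18.6, in WT replicate 1 it was listed only at 8 h with 23.3, and in WT replicate 2 they were 10.9, 9.63 and 20.4. The rank score was 3.67 to 21.1 in the 6 KO lists and 0 in the 9 control lists. The control nearest to the limit was WT replicate 2 at 0 h, at rank 16715, and the KO list nearest to it was replicate 2 at 8 h, at rank 15085.

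Element 4 was strongest in KO at 8 h. Its Z-scores were 25.9, 28.4 and 41.7 in KO replicate 1 and 31.4, 30.4 and 54.6 in KO replicate 2, the last being the highest of any element and list in the window. Littermate lists had 6.06, 11.1 and 23.8. Neither WT replicate had a hotspot there at 0 h, and after 3 and 8 h WT replicate 1 had 11.0 and 15.8 and WT replicate 2 had 12.5 and 16.4. The rank score at 8 h averaged 28.8 ± 12.5 in KO (SD, n = 2) and was 0 in all 3 controls, whereas at 3 h it was 0 and 7.41 in KO and 5.03 to 33.8 in controls. KO replicate 1 missed the shortened list at 0 h and 3 h by little, at ranks 15692 and 15696. Its place between the genotypes thus changed with time, and at 3 h the groups overlapped.

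**Figure D3:**
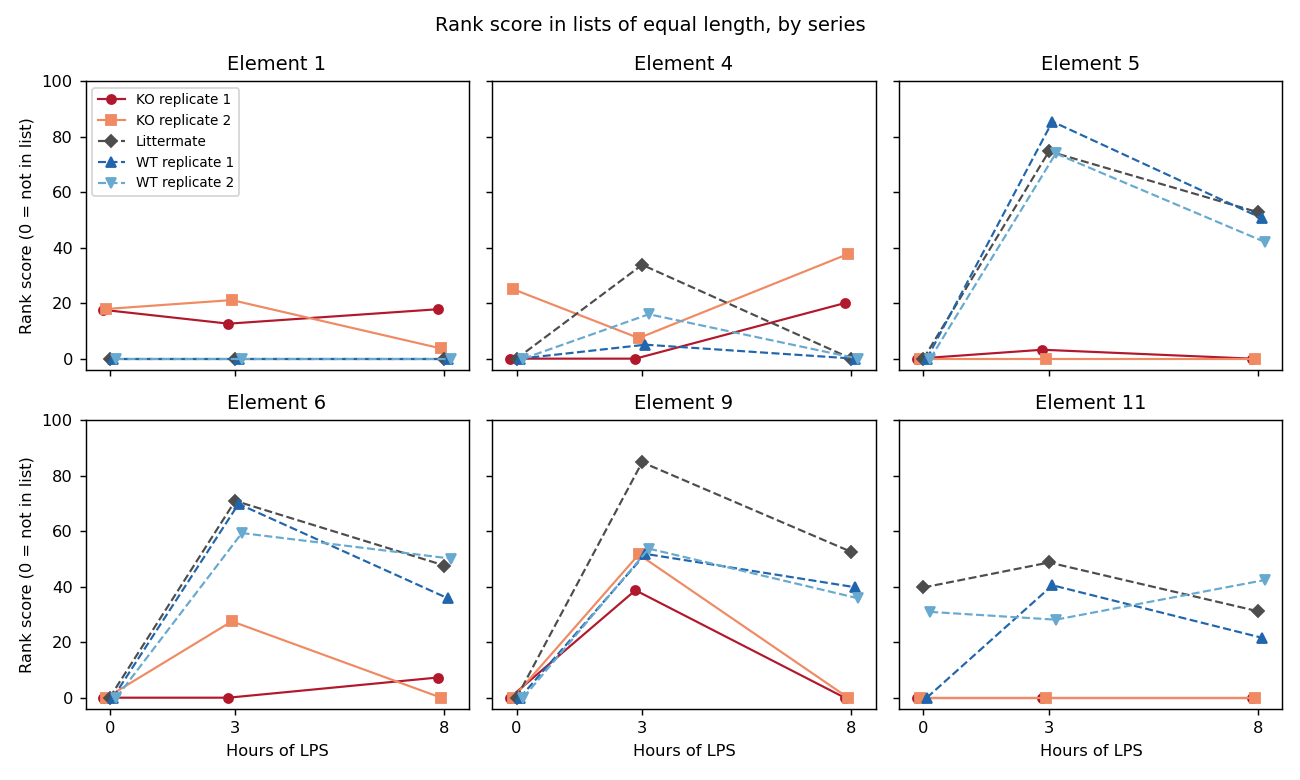
Each panel shows the rank score of an element against hours of LPS, with 1 line per series and 0 for an element outside the 15659 best hotspots. Controls reach 73.9 to 85.4 at 3 h for element 5 while KO stays at 0 to 3.21, and KO alone is above 0 for element 1.

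The element that led the window was read within each list, which needs no scaling between libraries. It differed between KO and the control lists that held any at 0 h and 8 h, but at 3 h element 9 led both KO lists and the littermate. In KO the strongest element by Z-score was element 1 in replicate 1 and element 4 in replicate 2 at 0 h, element 9 in both at 3 h and element 4 in both at 8 h. In controls it was element 11 in both lists that held any at 0 h. At 3 h it was element 9 in the littermate and element 5 in both WT lists. At 8 h it was element 5 in the littermate and WT replicate 1 and element 6 in WT replicate 2. The littermate lead at 8 h was nearly a tie, with element 5 at a Z-score of 45.4 and element 9 at 45.3. Elements 1 and 4 led no control list, and elements 5, 6 and 11 led no KO list. How often the lead differs in this way in other windows was not counted.

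Whether LPS changed the rank scores over all 5 series was tested by exact two-sided permutation of the times within genotype, with Benjamini-Hochberg adjustment over all elements tested. No element of the window passed at 8 h against 0 h (0 of 6, background 0% of 25715), nor at 3 h against 0 h (0 of 6, background 0% of 26044). The 72 arrangements cannot give a p below 0.0278, and no element of the genome passed; at an unadjusted p under 0.05 there were 3150 elements at 8 h and 2509 at 3 h. Element 9 reached that smallest exact p at 3 h, with a mean difference of 56.1 points, higher in 5 of 5 series, and an adjusted p of 0.288. Elements 5 and 6 differed by 47.5 and 45.5 points at 3 h (exact permutation p = 0.0833 for each, adjusted p = 0.454). At 8 h against 0 h the differences were 29.1 points for element 5, 28.1 for element 6 and 25.6 for element 9 (adjusted p of 0.477, 0.385 and 0.477 by the same exact permutation). Averaged over the 5 series, elements 1, 4 and 11 moved by less than 10 points at either time. Within a genotype group some moves were larger. From 0 h to 3 h the mean of element 4 went from 0 to 18.3 in controls and from 12.5 to 3.70 in KO, where it was 28.8 at 8 h. Element 11 went from 23.5 at 0 h to 39.1 at 3 h in controls.

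Presence was counted next, beside the share of all elements that met the same rule. An element was gained if every shortened list of the later time held it and no list at 0 h did. In controls, 4 of the 5 window elements in any of these lists were gained at 3 h (elements 4, 5, 6 and 9), where 3.28% of all elements were. At 8 h, 3 of 4 were gained in controls (elements 5, 6 and 9), against 6.07% of all elements. In KO, 1 of 5 was gained at 3 h (element 9), against 8.03% of all elements, and 0 of 3 at 8 h, against 10.1%. No window element was lost with LPS in KO or in controls, where 7.36% and 2.66% of all elements were lost at 3 h and 8.55% and 3.56% at 8 h. In the lists as deposited, where control lists at 0 h already held some of these elements at low rank, 0 elements were gained in controls at 3 h (background 0.345%) and 1 at 8 h (element 3, background 7.56%).

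Of the 6 elements, 5 passed a test of KO against controls over the 3 times, in which libraries of 1 series at different times were treated as independent. Element 1 ranked higher in KO, with a mean rank score of 15.1 in KO and 0 in controls. Elements 5, 6, 9 and 11 ranked lower in KO, with means of 0.534, 5.79, 15.1 and 0 in KO, against 42.1, 37.0, 35.4 and 31.4 in controls. Element 4 had means of 15.0 in KO and 6.10 in controls and did not pass. The test was an exact two-sided permutation of the KO label within each time over 1000 arrangements, with Benjamini-Hochberg adjustment over 27622 elements. By the same exact permutation test the adjusted p was 0.0130 for element 1, 0.0305 for element 11 and 0.0490 for elements 5, 6 and 9, and 0.451 for element 4. Over the genome 20.4% of elements passed, 12.3% higher and 8.12% lower in KO, and the window had 1 of 6 higher and 4 of 6 lower. Elements 1 and 11 entered the shortened lists through KO alone and through controls alone, so their scores of 0 in the other group follow from the list length. The same holds for most KO scores of elements 5, 6 and 9, which were 0 although every KO list as deposited held these elements. None of the 5 p-values is therefore read as support for a difference.

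None of the 5 calls held when whole series were relabelled (adjusted p = 0.337 for each by exact permutation), a test whose 10 arrangements cannot give a p below 0.1. Leaving out any 1 series left no call, with adjusted p between 0.0604 and 0.401 by exact permutation for these 5 elements, although each kept its direction. Without the 0 h libraries the adjusted p was 0.0661 for each of them by exact permutation. There elements 5, 6, 9 and 11 differed by more than over all times (-62.4, -46.9, -30.5 and -35.4 points) and element 1 by less (13.8 points). Leaving out a series or the 0 h libraries leaves fewer arrangements and so a higher smallest p. These runs cannot tell a lost difference from that limit. In the lists as deposited, with ranks taken relative to each list's own length, elements 5, 6, 9 and 11 turned to higher in KO, by 20.9, 21.5, 23.8 and 23.7 points, and did not pass (adjusted p of 0.299 to 0.367 by exact permutation), while element 1 kept its call (57.4 points, adjusted p = 0.0132). In lists of the 7829 best hotspots 0 elements passed. With at least 50% of an element covered, elements 6 and 9 did not pass (-7.38 and -8.60 points, adjusted p of 0.725 and 0.692 by exact permutation) and element 4 did (15.0 points, adjusted p = 0.0498).

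KO was also set against the littermate lists alone, where lists of 52400 hotspots could be used. The mean rank score was 74.6 in KO and 33.0 in the littermate for element 1, and 44.3 in KO and 21.0 in the littermate for element 12. It was 62.5 in KO and 81.6 in the littermate for element 9, and 65.7 in KO and 82.0 in the littermate for element 11. With 27 arrangements an exact permutation p cannot go below 0.0370, which these 4 elements reached (two-sided, adjusted p = 0.206). None passed, as for all 100782 elements tested (background 0%; 18090 had an unadjusted p under 0.05). For element 5 the mean was 60.2 in KO and 66.4 in the littermate (difference -6.23, exact permutation p = 0.556), and for element 6 it was 67 in KO and 78.8 in the littermate (-11.8, exact permutation p = 0.148). Both were lower in KO at 3 h and 8 h, with element 5 at 62.1 to 71.1 in KO and 85.9 to 92.4 in the littermate. At 0 h the order at element 5 was the other way, 45.9 and 47.8 in KO and 21.0 in the littermate.

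At single times, presence calls in lists of 15659 hotspots were most numerous at 8 h, which was not so at the other list lengths given below. Gained here means in both KO lists and in no control list, and lost means the reverse. At 8 h, 2 of 6 elements were gained (elements 1 and 4), against 9.58% of all elements, and 3 of 6 were lost (elements 5, 9 and 11), against 6.39%. At 3 h, 1 was gained (element 1, background 8.43%) and 1 was lost (element 11, background 4.05%). At 0 h, 1 was gained (element 1, background 7.20%) and 0 lost (background 3.66%). Every shortened KO list and no control list held element 1, as was true of 1.19% of elements, and no window element showed the reverse (0.152% of elements). With 2 against 3 lists no exact test at a single time can give a p below 0.1. In the lists as deposited, 0 elements were gained at 0 h (background 21.3%), 2 at 3 h (27.8%) and 0 at 8 h (9.90%). In lists of the 7829 best hotspots, gained and lost elements together numbered 0, 2 and 0 at 0, 3 and 8 h.

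The change with LPS from 0 h to 8 h was compared between the genotypes as a difference of differences. KO minus controls, it was -48.4 points for element 5, -40.9 for element 6, -42.7 for element 9 and 16.3 for element 4. For each the exact two-sided p over the 5 series was 0.1 and the adjusted p 0.402, and 10 arrangements can go no lower, so none passed and no element of the genome could (background 0%). In the lists as deposited the value for element 4 was -38.5, the opposite direction.

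The other 6 elements stayed outside the 15659 best hotspots of every list. Element 12 was in all 6 KO lists with Z-scores of 14.6 to 23.8, and in 4 control lists with 5.45 to 12.9. Element 2 was in all 6 KO and 5 control lists, and element 3 in 5 KO lists and the 3 control lists at 8 h. Element 8 was in both KO lists at 3 h and in 3 control lists after LPS, and in no list at 0 h, with Z-scores of at most 9.41. Elements 7 and 10 were in 1 and 2 lists. Their best rank in any list was 27110, and their absence from a control list shows only that they fell below that list's own limit.

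**Figure D4:**
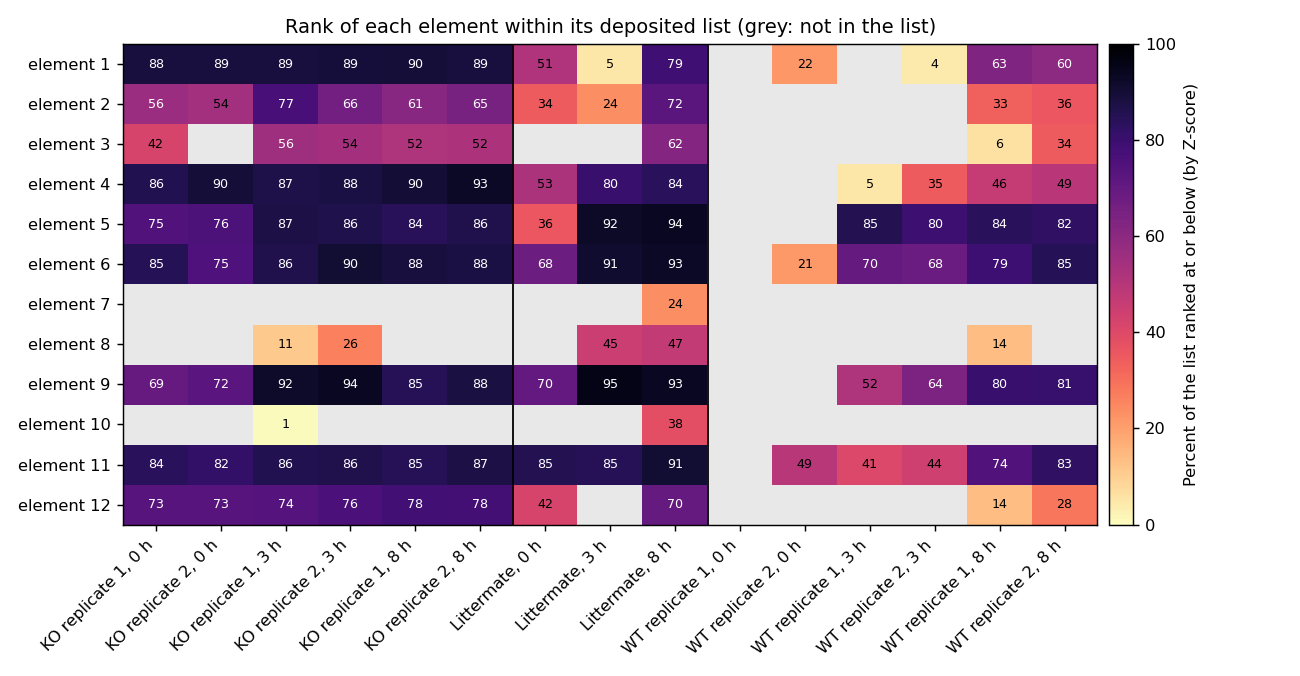
Rows are the 12 elements and columns the 15 libraries, and each number is the percent of that library's deposited list ranked at or below the element by Z-score, with grey for an element not in the list. Elements 1 and 4 lie at 85.9 to 92.6 in the KO columns, whereas the WT columns at 0 h hold 0 and 3 elements.

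Element 9, which had the highest mean rank score of the 12 elements over the 15 libraries (27.3), was compared with all elements outside the window. The 3 with the most similar rank scores over the 15 libraries were chr16:55635961-55637990 (Pearson r = 0.968), chr6:86496696-86498726 (r = 0.963) and chr3:107561504-107564003 (r = 0.955). These points share libraries and list lengths, and many are 0, so the values describe a common pattern of presence. The chromosome 16 element had rank scores of 47.8 and 53.2 in KO at 3 h, against 81.4 to 94.5 in controls, and 0 in both KO lists at 8 h, against 53.0 to 69.2 in controls. Like element 9, it was in no shortened list at 0 h.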

How the data were processed

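DNase-seq hotspot lists of 15 libraries were used, 1 per library, as deposited. The authors deposited, per the file headers, the start and end of each hotspot, its highest and mean tag density (a signal), a score called Zscore and a p-value. The submitters' processing notes name mm9 and CASAVA. No aligner, caller, threshold or density scaling is named for these lists: not given in the sources used here. The lists hold no read counts, so depth is unknown and no interval that needs it is given. Z-scores are printed as deposited and were used in tests only to rank hotspots within a list.

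Elements were formed by joining hotspots of any list that overlapped by 1 bp or more. An element took the rank of its best hotspot, lists were shortened to 15659 hotspots, and rank scores were tested by exact permutation with Benjamini-Hochberg adjustment over all elements in at least 1 of the lists compared, at 0.05. Scripts ran in Python 3.11.15 with numpy 2.4.6 and pandas 2.3.3 and were tested on simulated lists. No 2 replicate lists were copies: they shared at most 25 hotspots with identical ends. The groups, tests and alternatives follow the sample labels; the window, elements and tests were chosen with earlier results of these data known. Elements among the 15659 best of at least 1 list were named one by one. The wider NF-kB pattern, the stretches of 500 bp, the comparison without 0 h and that at 8 h alone were added after seeing the data. Promoters are from RefSeq, GRCm38.p6.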

Additional observations from a re-analysis of the deposited data

How the results depend on the processing

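The LPS tests and the genotype difference of LPS changes called 0 elements under every alternative run. For KO against controls, the lists as deposited gave 4 calls, of which only element 1 was among the 5; element 4 passed (49.8 points, adjusted p = 0.0321 by exact permutation), and the other 2 lie outside the shortened lists. Ranking by MaxD gave 3, without elements 5 and 9 (adjusted p of 0.0558 and 0.186), and at least 50% coverage gave 4, without elements 6 and 9 and with element 4. There were 0 calls in lists of the 7829 best hotspots, 0 against the littermate alone, 0 without the 0 h libraries, 0 at 8 h alone and 0 without any 1 series. Apart from the lists of 7829, these runs have fewer arrangements, and their 0 calls cannot be told apart from that limit. In bins of 500 bp 23 bins were called, a count of bins and not of elements. The genome-wide share called is not given here for these settings, so none of these counts is read as support for a difference. Replicate numbers were not shown to pair libraries: deviations of libraries with the same number correlated at 0.182 to 0.268 in WT and at -0.0299, -0.0282 and 0.155 in KO. With the replicate block, in which whole series are relabelled, 0 elements were called for KO against controls, where p cannot go below 0.1, and 0 for LPS.

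Presence counts, gained and lost together, depended on the list length. They are given here without the genome-wide share and show only how the counts move with the processing. In lists of 7829 they were 0 for 3 h in KO, 0 for 8 h in controls and, for KO against controls, 0 at 0 h, 0 at 8 h and 0 over all times. As deposited they were 0 for 3 h and 1 for 8 h in controls, and 0 at 0 h, 0 at 8 h and 0 over all times for KO against controls. Ranked by MaxD they were 1 for 8 h in KO, and 1 at 3 h, 2 at 8 h and 0 over all times for KO against controls. With at least 50% of an element covered they were 1 for 3 h in controls, and 1 at 3 h and 0 over all times for KO against controls. Against the littermate alone they were 0 at 0 h, 1 at 8 h and 0 over all times. In bins of 500 bp KO had 5 at 3 h and 1 at 8 h, controls had 18 at 3 h and 21 at 8 h, and the counts were 4, 12, 30 and 3 for KO against controls at 0, 3 and 8 h and over all times. Without 1 series each KO had 1 to 2 at 3 h and 0 to 2 at 8 h, controls had 4 to 4 at 3 h and 3 to 3 at 8 h, and the counts were 1 to 2, 2 to 4, 5 to 6 and 1 to 2 for KO against controls. Merged over the shortened lists the window held 6 elements in place of 12. The causes of these shifts were not tested.

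Directions turned in the lists as deposited for elements 5, 6, 9 and 11 in KO against controls (20.9, 21.5, 23.8 and 23.7), for element 1 at 8 h against 0 h (26.0) and for element 4 in the LPS change of KO minus controls (-38.5). Element 1, near 0 in the LPS comparisons, turned to 2.85 at 8 h, 8.67 at 3 h and 1.11 in the LPS change when ranked by MaxD. Its range without 1 series each was -3.56 to 0.0575, -1.24 to 0.787 and -14.2 to 0.230 for the same 3 comparisons. Element 4 turned to -3.53 at 3 h with at least 50% covered. Depth is unknown and limits every absence.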
